A study of Arabidopsis thaliana with 6 samples.

Results

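Genes for TIR-type immune receptors were measured in rosettes of Arabidopsis thaliana, and 45 of the 60 receptor loci listed for this family could be read, among 13286 genes with a probe set of their own. A locus was kept where the array's annotation gives it a probe set that names no other gene, and each of the 45 had 1 such probe set. Members of a cluster are close in sequence, and whether a probe set also reads a related gene was not tested. Of the 15 loci left out, 3 lie on probe sets shared by 2 genes and 12 were not analysed here because the annotation used names no probe set for them. Among these 15 are WRR4 (AT1G56510), RPP1 (AT3G44480), RPP4 (AT4G16860), SNC1 (AT4G16890), RPP5 (AT4G16950), RLM3 (AT4G16990), RMG1 (AT4G11170) and the TIR-domain gene TIR (AT1G72930).

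Wild-type plants (Col-0) were compared with sid2.2 plants, which are mutated in ICS1. This isochorismate synthase makes a precursor of salicylic acid (SA), a defence hormone. Both genotypes grew for 60 days at 0.016 mM sulfate, in days of 8 h of light and 16 h of darkness (light intensity 160 micromol m-2 s-1), so low sulfate and short days were common to every group. Each of 3 cultures, begun months apart, gave 1 pool of whole rosettes per genotype, each pool drawn from more than 6 plants, so there were 3 Col-0 and 3 sid2.2 arrays. Values below are given in the order of cultures 1, 2 and 3, which are also the replicate numbers, and a difference is sid2.2 minus Col-0 on the log2 scale.

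TIR-type receptors recognise pathogen effectors, or the host proteins that effectors change, inside the cell. A full-length receptor joins a TIR domain to a nucleotide-binding domain and leucine-rich repeats, while shorter forms keep the TIR domain with or without the nucleotide-binding part. The active TIR domain is an enzyme that splits NAD+, and the small molecules it makes are sensed by EDS1 with its partners PAD4 or SAG101, which then engage helper receptors of the ADR1 and NRG1 families. In leaves this route raises the expression of ICS1, and SA in turn is known to raise the transcripts of a number of immune receptors. The comparison of sid2.2 with Col-0 asks how transcript signal of these genes differs when that SA source is mutated.

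The tissue label was checked first. The 3 leaf markers with a probe set, the Rubisco activase gene RCA, the light-harvesting gene LHCB4.1 and the Calvin cycle gene PRK, had signals between 5038 and 24346 on all arrays. The root marker PYK10 ranged from 32.0 to 232. Flower and seed markers of the fixed lists were not analysed here. Median signal per array lay between 131 and 162, and the 3'-to-5' signal ratio of the actin control, a measure of RNA integrity, was 4.91, 4.85 and 4.81 on the Col-0 arrays against 5.34, 6.51 and 8.34 for sid2.2. No probe set of ICS1 was used, so the genotype labels were not checked by the mutated gene. In whole rosettes, fewer cells of a type and less RNA per cell cannot be told apart.

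Many members gave little signal in these rosettes. The background limit of an array was taken as the 95th percentile of 27 bacterial control probe sets for transcripts that were not added, and it lay between 27.9 and 39.9 (arbitrary MAS5 signal units). Of the 45 members, 27 (60.0%) were above this limit on all 6 arrays, against 65.0% of all probe sets, and 4 were above it on none, against 14.8%. The other 14 crossed it on some arrays. On single arrays 15.6% to 28.9% of members lay at or below background, and 23.4% to 27.3% of all probe sets. The lowest share of members was on sid2.2 replicate 2 and the highest on sid2.2 replicate 1, whose limits were 27.9 and 39.4.

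**Figure D1:**
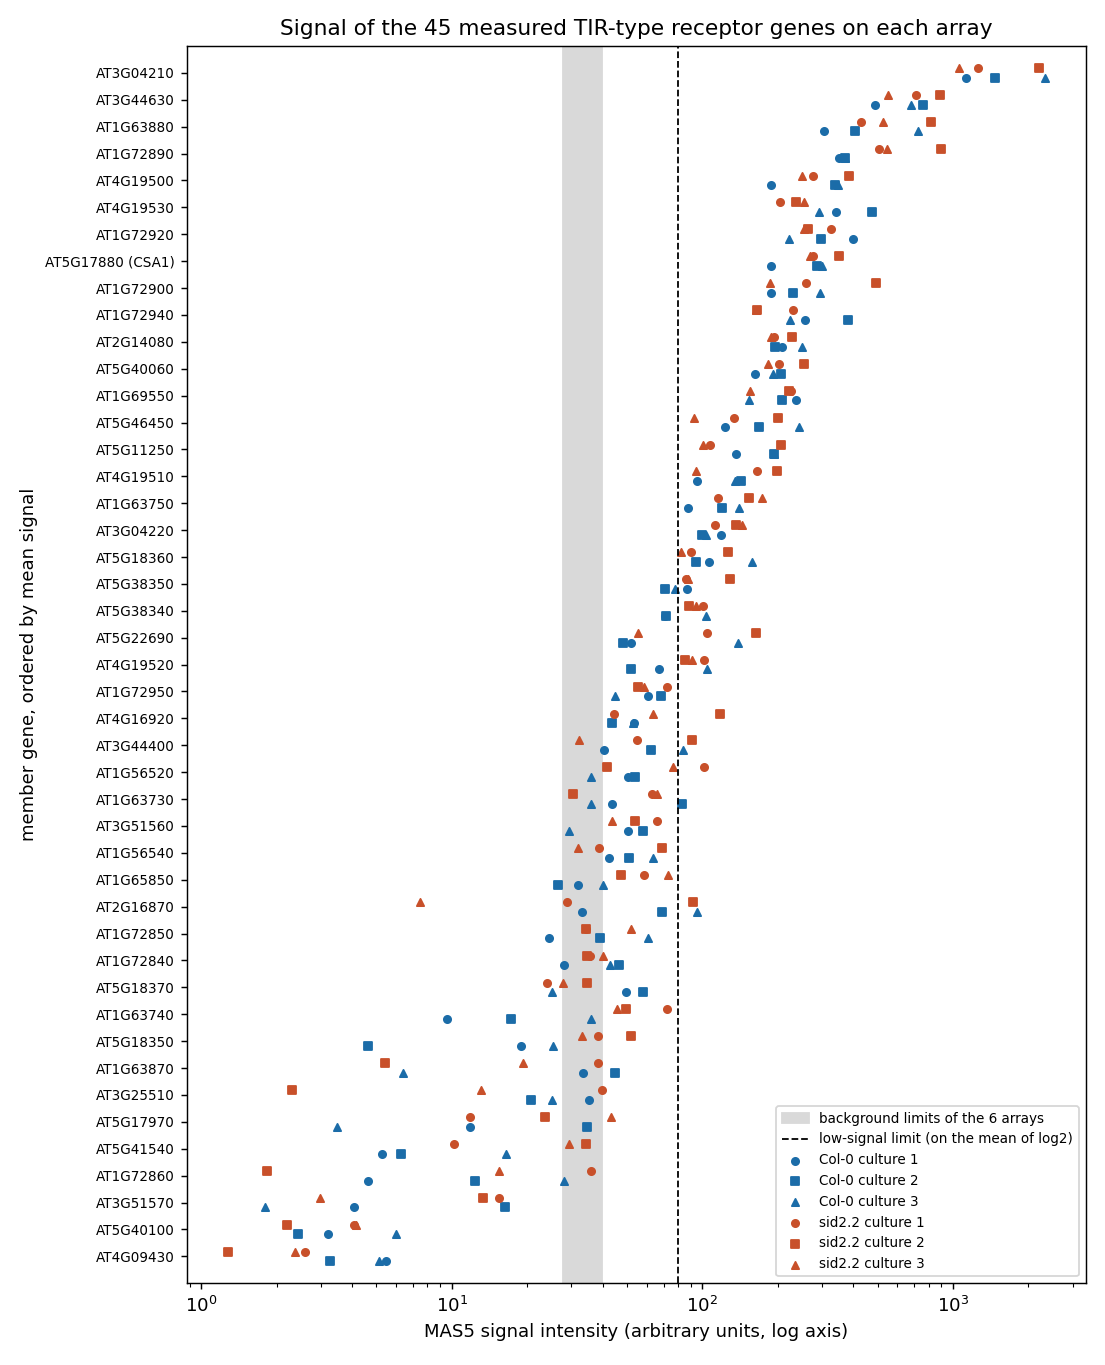
Signal intensity (arbitrary units, log axis) of each measured member on the 6 arrays, with blue points for Col-0, orange points for sid2.2 and a marker shape per culture; the grey band spans the background limits of 27.9 to 39.9 and the dashed line is the low-signal limit of 79.7. The upper 23 genes pass the low-signal limit and the lower 22 do not, and in most rows the blue and orange points intermingle.

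Probe sets differ in how strongly they bind, so the order of signals is not an order of transcript abundance. The 5 brightest members were AT3G04210, AT3G44630, AT1G63880, AT1G72890 and AT4G19500. The gene AT3G04210 encodes TN13, a TIR receptor without leucine-rich repeats that interacts with a nuclear import receptor. It had signals of 1128, 1476 and 2323 on the Col-0 arrays (mean 1642 ± 614, SD, n = 3) and 1261, 2197 and 1056 on the sid2.2 arrays (mean 1505 ± 608). Its genotypes overlapped, and the brightest array of each was Col-0 replicate 3 and sid2.2 replicate 2. The 5 dimmest members were AT4G09430, AT5G40100, AT3G51570, AT1G72860 and AT5G41540. Of these, the first 4 were at or below background on every array, and AT5G41540 passed it on 1, sid2.2 replicate 2 with a signal of 34.5.

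Genotypes were compared in 1 limma fit over all 13647 probe sets that passed a low-signal limit, set at a geometric mean signal of 79.7 so that the dimmest 40% were removed. This kept 23 of the 45 members and left 22 untested there. No member was called at a limma adjusted p under 0.05, in a fit that called 0.0220% of all probe sets. At an unadjusted p under 0.05 there were 2 members of 23, AT1G72890 above and AT4G19530 below 0, where the share over all probe sets was 7.40%. The signals of the genotypes did not overlap for 1 tested member with sid2.2 higher and 1 with sid2.2 lower, again AT1G72890 and AT4G19530, against 6.40% and 5.58% of all probe sets. These shares are near the background, so they are no result about the receptors.

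The size of any difference was bounded unevenly. The 95% interval of the difference lay within 2-fold in either direction for 11 of the 23 members, and for 63.3% of all tested probe sets. For the other 12 a change of 2-fold in at least 1 direction lies inside the interval. The widest interval was that of AT5G22690, -0.71 to 1.67, around a difference of 0.48. The narrowest was that of AT2G14080, -0.63 to 0.44, around -0.10.

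**Figure D2:**
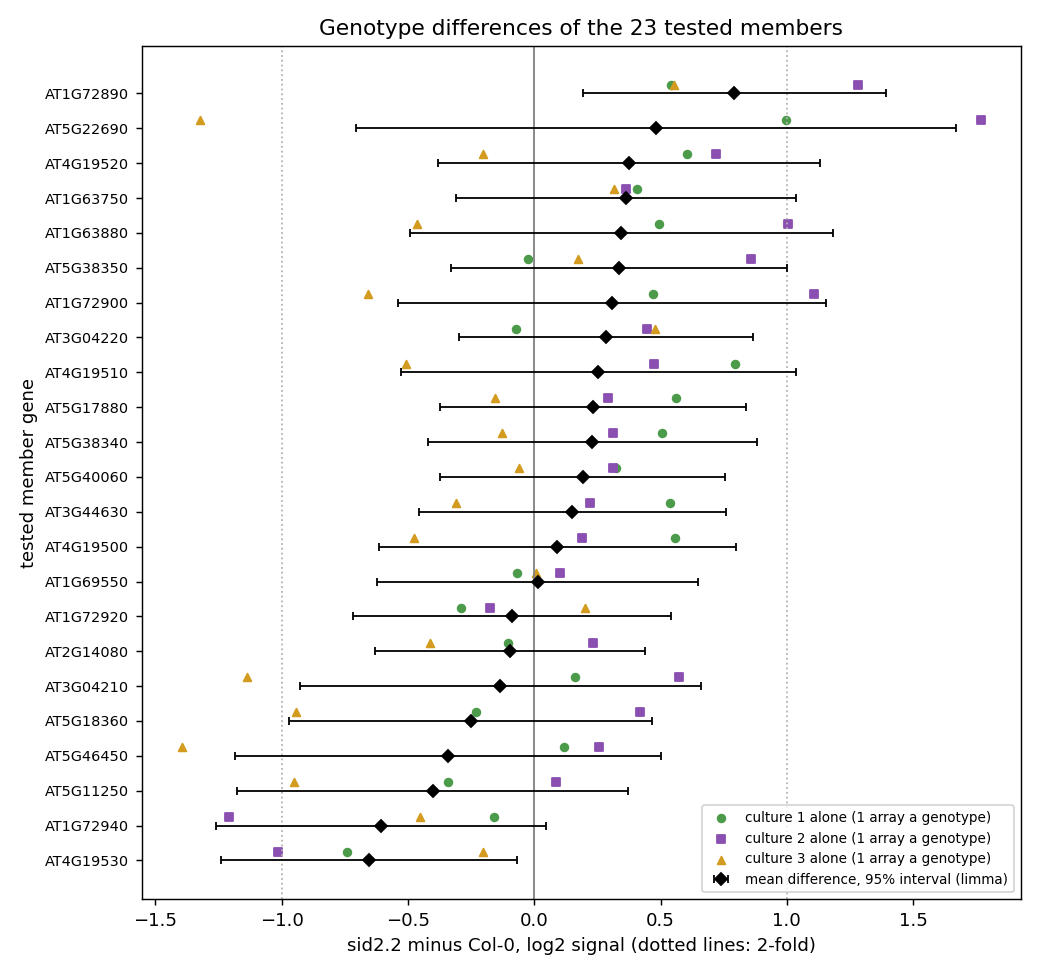
Difference sid2.2 minus Col-0 (log2 signal) of the 23 tested members, with black diamonds for the mean, bars for the 95% interval of the limma fit and coloured markers for each culture alone. The intervals of AT1G72890 (0.19 to 1.39) and AT4G19530 (-1.24 to -0.068) leave out 0 before adjustment, and culture 3 lies below 0 for 17 of 23 members.

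AT1G72890, in the largest cluster of listed loci, had the smallest p among the tested members. Its signals were 349.6, 369 and 372 on the Col-0 arrays (mean 363 ± 12.1, SD, n = 3) and 509, 897 and 545 on the sid2.2 arrays (mean 650.3 ± 214). All 3 sid2.2 arrays lay above all Col-0 arrays, and the highest, sid2.2 replicate 2, stood well apart from the other sid2.2 arrays. The difference was 0.79 (SE 0.26, 95% interval 0.19 to 1.39, limma adjusted p = 0.555), and 0.54, 1.28 and 0.55 within the cultures.

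AT4G19530, next to the RPP2 pair of receptor genes, had the second smallest p. Its signals were 342, 477 and 292 on the Col-0 arrays (mean 371 ± 95.7, SD, n = 3) and 205, 236 and 254 on the sid2.2 arrays (mean 231 ± 24.95). Every sid2.2 array lay below every Col-0 array, by the least in culture 3. The difference was -0.65 (SE 0.26, 95% interval -1.24 to -0.068, limma adjusted p = 0.633), and -0.74, -1.02 and -0.20 within the cultures.

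The third was AT1G72940, from the same cluster as AT1G72890. It had signals of 256, 381 and 223 on the Col-0 arrays (mean 287 ± 83.2, SD, n = 3) and 229, 165 and 163 on the sid2.2 arrays (mean 186 ± 37.7). The groups overlapped, because sid2.2 replicate 1 lay above Col-0 replicate 3, and Col-0 replicate 2 was the highest of all. The difference was -0.61 (95% interval -1.26 to 0.045, limma adjusted p = 0.723), and -0.16, -1.21 and -0.45 within the cultures. The 7 members that followed by p had adjusted p values of 0.817 to 0.851. Of these AT1G63750 had the most even cultures, with 0.41, 0.36 and 0.32 around a mean of 0.36 (95% interval -0.31 to 1.04). Its signals of 87.5, 119.9 and 139.5 on the Col-0 arrays and 116, 154 and 174 on the sid2.2 arrays overlapped between genotypes.

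The same sign in all 3 cultures was seen for 4 of 23 members, AT1G63750, AT1G72890, AT1G72940 and AT4G19530. Over all tested probe sets 21.5% had the same sign throughout, so 4 of 23 is near the background too.

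Several measured members are resistance genes with a known role. RPP2A (AT4G19500) and RPP2B (AT4G19510) are neighbours that are both needed for resistance to an isolate of the downy mildew oomycete. RPP2A had signals of 189, 337 and 348 on the Col-0 arrays and 277, 385 and 251 on the sid2.2 arrays, and RPP2B had 95.01, 143 and 135 on the Col-0 arrays and 165, 199 and 94.6 on the sid2.2 arrays. Both were lowest in Col-0 on replicate 1 and highest in sid2.2 on replicate 2, and their genotypes overlapped. The differences were 0.091 (95% interval -0.62 to 0.80) and 0.25 (95% interval -0.53 to 1.04), with limma adjusted p values of 0.954 and 0.883. A further gene of downy mildew resistance, RPP28 (AT2G14080), had signals of 208, 194 and 249.6 on the Col-0 arrays and 194, 228 and 187 on the sid2.2 arrays. Its arrays lay within a narrow range that both genotypes shared, and the difference of -0.10 had a limma adjusted p of 0.936.

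RLM1B (AT1G63880) belongs to the locus of resistance to the blackleg fungus Leptosphaeria maculans. Its signals were 304, 406 and 727 on the Col-0 arrays and 428, 814 and 527 on the sid2.2 arrays. Col-0 replicate 3 and sid2.2 replicate 2 were the highest of their genotypes, and the ranges overlapped. The difference was 0.34 (95% interval -0.49 to 1.18, limma adjusted p = 0.848). It rested on single arrays, at 0.066 without Col-0 replicate 1, 0.086 without sid2.2 replicate 2 and 0.69 without Col-0 replicate 3. BAR1 (AT5G18360), a receptor for a bacterial effector, had signals of 106, 94.2 and 158 on the Col-0 arrays and 90.4, 126 and 82.1 on the sid2.2 arrays. The same 2 arrays were again the highest of their genotypes, with a difference of -0.25 (95% interval -0.97 to 0.47, limma adjusted p = 0.873).

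CSA1 (AT5G17880), named for a shade-avoidance mutant and paired in function with a neighbouring receptor, had signals of 187, 286 and 301 on the Col-0 arrays and 276, 350.1 and 269.9 on the sid2.2 arrays. Its lowest array was Col-0 replicate 1 and its highest sid2.2 replicate 2. The difference was 0.23 (95% interval -0.37 to 0.84, limma adjusted p = 0.859), and it was 0.017 without Col-0 replicate 1 and 0.11 without sid2.2 replicate 2. BNT1 (AT5G11250), described as a regulator of hormone-dependent stress responses, had signals of 136, 194 and 194 on the Col-0 arrays and 108, 206 and 100.4 on the sid2.2 arrays. Replicates 1 and 3 of sid2.2 lay below all Col-0 arrays, while sid2.2 replicate 2 lay above them. The difference was -0.40 (95% interval -1.18 to 0.37, limma adjusted p = 0.825). TN13 differed by -0.13 (95% interval -0.93 to 0.66, limma adjusted p = 0.938), with 0.16, 0.57 and -1.14 within the cultures.

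The remaining tested members, for which no role is given here, had limma adjusted p values of 0.830 or more. AT5G22690 varied most across arrays, with signals of 52.1, 48.3 and 139 on the Col-0 arrays and 104, 164 and 55.5 on the sid2.2 arrays. Both genotypes spanned almost the same range, and the cultures gave 0.998, 1.77 and -1.32. AT5G46450 had 123, 168 and 243 on the Col-0 arrays and 134, 201 and 92.4 on the sid2.2 arrays, highest on Col-0 replicate 3 and lowest on sid2.2 replicate 3. Its difference was -0.34. AT3G44630, which lies near RPP1, had 489.6, 759.8 and 682 on the Col-0 arrays and 711, 886 and 551 on the sid2.2 arrays. The ranges overlapped and the difference was 0.15 (95% interval -0.46 to 0.76). The neighbours AT5G38340 and AT5G38350 differed by 0.23 and 0.34. AT3G04220, next to TN13, differed by 0.28 and AT5G40060 by 0.19. For AT1G69550 the difference was 0.014, and it took the opposite sign with quantile normalization (-0.049) and median centring (-0.065).

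Across the tested members the median difference was 0.19, with 15 of 23 above 0, while the median over all tested probe sets was -0.0051 and 49.4% lay above 0. This shift rested on single arrays. Without sid2.2 replicate 2 the median of the 23 members was -0.016, and without culture 2 it was 0.015, while without culture 3 it was 0.37. It was 0.13 with quantile normalization and 0.11 with median centring. Over all 45 members, dim ones included, the median was 0.11, with 26 above 0.

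The cultures did not run the same way. In culture 1 the median difference of the 23 members was 0.33 and 14 lay above 0, where all tested probe sets had a median of 0.11 and 57.9% above 0. Culture 2 gave 0.31 and 20 above 0, against 0.0018 and 50.1%. In culture 3 the median was -0.31 and 6 lay above 0, against -0.066 and 45.02%. Each culture has 1 array per genotype, so these are values with no test.

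**Figure D3:**
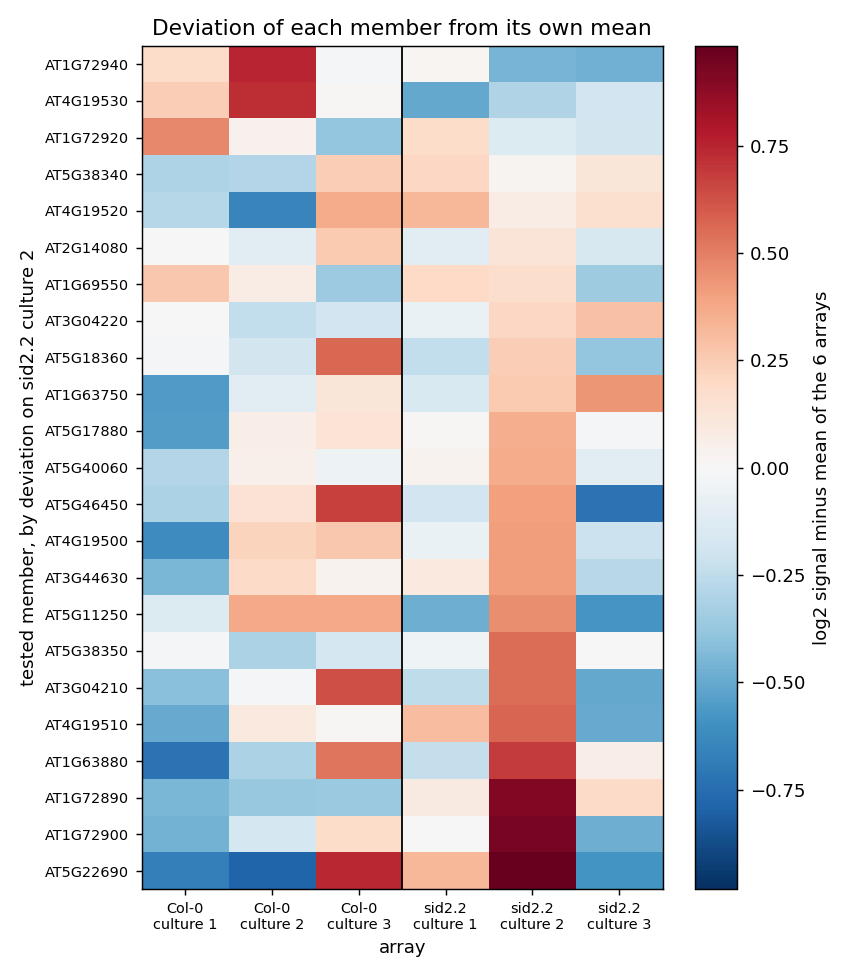
Log2 signal of the 23 tested members on each array minus the member's own mean over the 6 arrays (red above, blue below), with members ordered by their value on the sid2.2 array of culture 2. Most members are red on that array (median 0.36), and many on Col-0 of culture 3 (median 0.14), while Col-0 of culture 1 is mostly blue (median -0.30).

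The members' median level differed between arrays. On sid2.2 replicate 2 their median deviation from their own mean was 0.36, against 0.026 for all tested probe sets. On Col-0 replicate 1 it was -0.30, against -0.050. On the other arrays it was -0.022 for Col-0 replicate 2, 0.14 for Col-0 replicate 3, 0.0026 for sid2.2 replicate 1 and -0.19 for sid2.2 replicate 3. The sid2.2 arrays therefore held both the highest receptor signals and, in replicate 3, signals below the members' means.

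By gene, sid2.2 replicate 2 was the highest sid2.2 array for 15 of 23 members, against 38.4% of all tested probe sets. Col-0 replicate 3 was the highest Col-0 array for 13 of 23, against 43.3%. Both held at once for 10 of 23, among them TN13, RLM1B, BAR1, RPP2A, RPP28 and CSA1, against 26.5%. The lowest sid2.2 array was replicate 3 for 15 of 23, against 41.8%, and the lowest Col-0 array was replicate 1 for 13, against 36.2%. The tissue markers also differed between these arrays. All 3 leaf markers had their lowest Col-0 signal on replicate 3 and their lowest sid2.2 signal on replicate 2. Over all tested probe sets these arrays were the lowest of their genotype for 34.0% and 35.4%. RCA had 15691, 22785 and 11743 on the Col-0 arrays and 17358, 15029.5 and 24339 on the sid2.2 arrays. The root marker PYK10 was lowest on the same arrays, with 83.8, 170.0 and 44.4 for Col-0 and 232, 31.99 and 115 for sid2.2. The part of tissue makeup in the receptor signals was not tested. The actin 3'-to-5' ratio was nearly equal on the Col-0 arrays and highest, at 8.34, on sid2.2 replicate 3. That array was the lowest of sid2.2 for 15 of 23 members, against 41.8% of all tested probe sets. The next highest actin ratio, 6.51, was on sid2.2 replicate 2. It was the highest sid2.2 array for 15 of 23 members, against 38.4%. The same ratio of the GAPDH control was 2.81, 2.74 and 2.33 on the Col-0 arrays and 2.93, 3.26 and 3.87 on the sid2.2 arrays. The part of RNA integrity in the receptor signals was not tested either.

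TIR receptor genes lie in clusters of related neighbours, and 7 clusters of 3 or more listed loci were formed by locus number. The largest, AT1G72840 to AT1G72950, holds 10 listed loci, of which 8 were measured and 4 tested. This cluster is known for short receptors with a TIR domain and few or no repeats. The 4 tested members had differences from -0.61 to 0.79 with a median of 0.11, and they include the highest difference among all tested members and the lowest but that of AT4G19530. AT1G72900, beside AT1G72890, had signals of 187, 229.7 and 294 on the Col-0 arrays and 259.7, 495 and 186 on the sid2.2 arrays. Its sid2.2 replicate 2 stood far above all other arrays, and the cultures gave 0.47, 1.11 and -0.66 around a mean of 0.31. AT1G72920 differed by -0.088, with signals of 401, 297 and 222 on the Col-0 arrays and 327, 263 and 255 on the sid2.2 arrays that overlapped. The dim members of the cluster were AT1G72840, AT1G72850, AT1G72860 and AT1G72950. Of these only AT1G72950 was above background on all arrays, with 60.98, 68.3 and 44.7 on the Col-0 arrays and 72.2, 55.4 and 58.4 on the sid2.2 arrays.

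**Figure D4:**
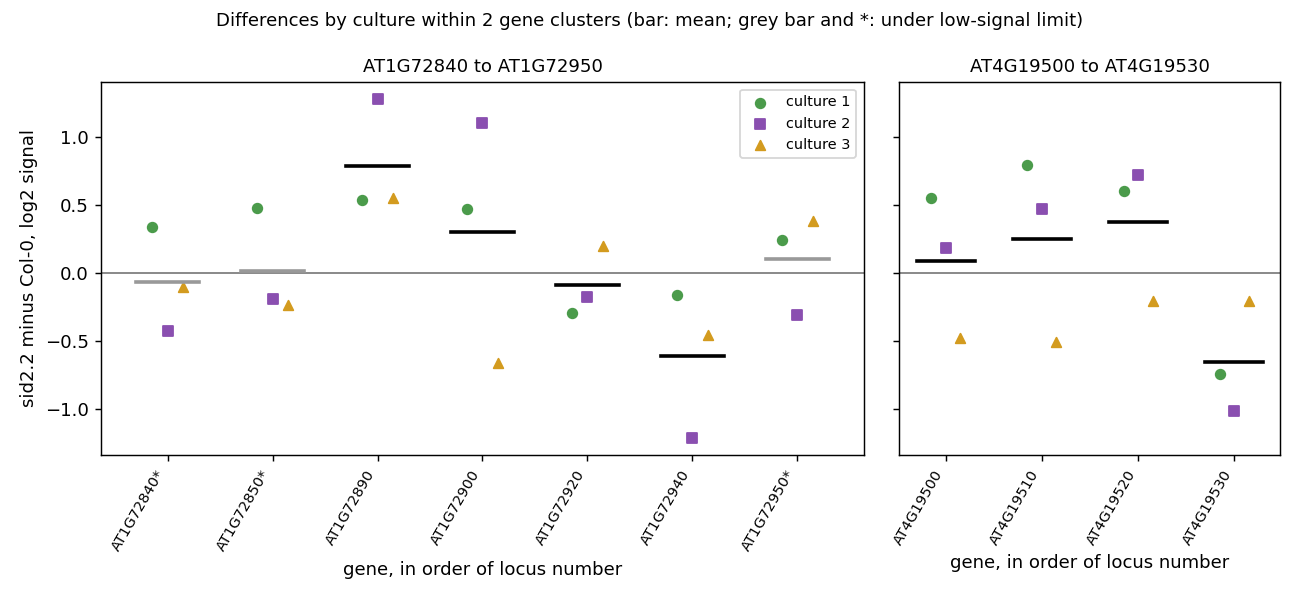
Difference sid2.2 minus Col-0 (log2 signal) by culture for the measured members of the clusters AT1G72840 to AT1G72950 and AT4G19500 to AT4G19530, in order of locus number, with a bar for the mean (grey, and a star by the name, under the low-signal limit). AT1G72860, at or below background on all arrays, is not drawn, and AT1G72890 (0.79) and AT1G72940 (-0.61) lie on opposite sides of 0 in every culture.

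The cluster AT4G19500 to AT4G19530 was measured whole, and all 4 members were tested. RPP2A, RPP2B and AT4G19520 were above 0 in cultures 1 and 2 and below 0 in culture 3. AT4G19520 had signals of 66.9, 51.8 and 104 on the Col-0 arrays and 102, 85.3 and 90.6 on the sid2.2 arrays and differed by 0.37 (95% interval -0.38 to 1.13). AT4G19530 was below 0 in all cultures, and the cluster's median was 0.17.

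The other clusters gave fewer values. In AT1G63730 to AT1G63750 only AT1G63750 was tested, with its difference of 0.36. AT1G63730 differed by -0.011, and AT1G63740 was above background on 1 of 3 Col-0 arrays. In AT5G18350 to AT5G18370 only BAR1 was tested. Of the other 2 genes, AT5G18350 was above background on 1 array, and AT5G18370 on 3. AT1G56510 to AT1G56540 had 2 measured members, AT1G56520 at 0.57 and AT1G56540, which passed background on 1 of 3 sid2.2 arrays. In AT1G63860 to AT1G63880, AT1G63870 beside RLM1B was above background on 2 Col-0 arrays and on no sid2.2 array. In the cluster of RPP4, SNC1 and RPP5, with 6 listed loci, only AT4G16920 was measured. It had signals of 53.6, 43.6 and 52.9 on the Col-0 arrays and 44.3, 118 and 63.6 on the sid2.2 arrays, highest on sid2.2 replicate 2, and a difference of 0.48.

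The 22 members under the low-signal limit were fitted only with that limit removed, over 22746 probe sets. That fit called 0 of the 45 members and 0% of all probe sets at a limma adjusted p under 0.05, and 4 members and 1555 probe sets had an unadjusted p under 0.05. Of the 22 dim members, 4 were above background on all 6 arrays: AT1G56520, AT1G63730, AT1G72950 and AT4G16920. AT1G56520 had 50.6, 54.02 and 36.1 on the Col-0 arrays and 102, 41.5 and 76.5 on the sid2.2 arrays, and AT1G63730 had 43.8, 83.1 and 35.8 on the Col-0 arrays and 63.1, 30.6 and 66.02 on the sid2.2 arrays. Both overlapped between genotypes.

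Among the 22 dim members, 3 had all sid2.2 arrays above all Col-0 arrays and 1 had them all below, where the shares of all 9099 probe sets under the limit were 7.75% and 3.78%. So few members are read one by one and not as a result about the receptors. AT1G63740 had signals of 9.59, 17.2 and 36.04 on the Col-0 arrays and 72.1, 49.6 and 45.6 on the sid2.2 arrays. In Col-0 only replicate 3 was above background, and all sid2.2 arrays were. With most Col-0 arrays at or below background no fold is given (limma adjusted p = 0.672 without the limit). AT1G65850 had 31.9, 26.6 and 40.3 on the Col-0 arrays and 58.5, 47.4 and 73.1 on the sid2.2 arrays. Its difference of 0.86 (limma adjusted p = 0.778 without the limit) was nearly the same in each culture, at 0.88, 0.83 and 0.86. Col-0 replicate 2 was below background and Col-0 replicate 1 barely above it, at 31.9 against a limit of 30.8, so the Col-0 side of this difference is uncertain. AT5G18350 had 18.8, 4.64 and 25.4 on the Col-0 arrays and 38.3, 51.9 and 33.2 on the sid2.2 arrays. No Col-0 array and only sid2.2 replicate 2 passed background, so no fold is given (adjusted p = 0.724). One dim member, AT4G09430, lay lower on all sid2.2 arrays, at 5.48, 3.26 and 5.13 on the Col-0 arrays and 2.60, 1.28 and 2.37 on the sid2.2 arrays, but every value was below background, so no fold is given.

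The remaining dim members overlapped between genotypes. AT5G41540 had no Col-0 array above background. AT2G16870 was above background on all Col-0 arrays and on 1 sid2.2 array, with 33.1, 69.2 and 95.4 on the Col-0 arrays and 28.9, 92.2 and 7.47 on the sid2.2 arrays. AT3G25510 and AT5G17970 were above background on 1 array of each genotype, with 35.4, 20.6 and 25.04 on the Col-0 arrays and 39.8, 2.30 and 13.1 on the sid2.2 arrays for the first. AT3G44400 and AT3G51560, each above background on 5 arrays, differed by -0.13 and 0.29. At such signals the median spread between arrays of a genotype was 0.61 (residual SD, log2), against 0.34 for the tested members.

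Downstream of the receptors few genes of the fixed lists had a probe set of their own, and none was called. Of the 4 loci of the EDS1 family 2 were tested. SAG101, the partner of EDS1 in cell death signalling, had signals of 179.5, 220.2 and 346 on the Col-0 arrays and 226, 468 and 141 on the sid2.2 arrays. It was highest on Col-0 replicate 3 and sid2.2 replicate 2, like many receptors. The difference was 0.042 (limma adjusted p = 0.985), with 0.33, 1.09 and -1.29 within the cultures, and its sign turned with quantile normalization (-0.023) and median centring (-0.038). AT3G48080, a close copy of EDS1, had 42.3, 156 and 65.6 on the Col-0 arrays and 110.3, 182 and 39.2 on the sid2.2 arrays. The difference was 0.29 (limma adjusted p = 0.928). Its signal on sid2.2 replicate 3 lay just below that array's background limit of 39.9, so the sid2.2 side of this difference is uncertain. Neither pair of groups was separate.

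Of the 6 helper receptors only AT5G66890, of the NRG1 group, was measured, and it was below the low-signal limit. Its signals were 58.7, 39.6 and 60.4 on the Col-0 arrays and 86.7, 188 and 61.02 on the sid2.2 arrays. All sid2.2 arrays lay above all Col-0 arrays, by a margin of less than 1 unit between sid2.2 replicate 3 and Col-0 replicate 3, and the fit without the limit gave an adjusted p of 0.780. Among 21 regulators of TIR receptors only SGT1A, a co-chaperone of receptor folding, was tested. It had signals of 1295, 1844 and 1080.0 on the Col-0 arrays and 1109.8, 979 and 894 on the sid2.2 arrays. The groups overlapped, because sid2.2 replicate 1 lay above Col-0 replicate 3, and the difference was -0.47 (limma adjusted p = 0.745). The 17 listed genes of SA and defence output were not analysed here.

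Receptors of the other large class, with a coiled-coil in place of the TIR domain, were taken from a fixed list of 47 loci, of which 24 had a probe set of their own and 9 were tested. None of the 9 was called. Their median difference was -0.021, with 4 above 0, and 0.41, 0.25 and -0.69 within the cultures, beside 0.33, 0.31 and -0.31 for the TIR-type members. For 4 of the 9 the highest arrays were Col-0 replicate 3 and sid2.2 replicate 2, beside 10 of 23 TIR-type members and 26.5% of all tested probe sets. The difference between the classes was not tested.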

How the data were processed

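The authors deposited a table of linear signal intensity, 1 value per probe set and array. Per the submitters' processing notes the tool was MAS5, with the version and the image analysis not given in the sources used here. Trimmed of 2% of values at each end, every array had a mean between 500.0 and 500.1, so the arrays share 1 scale. Because of this shared scale, a change in total signal cannot be seen. Since MAS5 takes off background within an array, dim probe sets scatter widely after log transformation. Arrays have no counting depth, and 3 arrays per genotype limit the precision.

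Of 22810 probe sets, 64 of them controls, 13513 had 1 gene name in the platform annotation, 503 had several and 8794 had none. Loci were matched by gene identifier to a RefSeq gene table (assembly TAIR10.1), used for names only, since the sources used here give no build for the probe sets. The signal intensities as deposited were log2 transformed without further scaling. The 2 genotypes were then fitted with limma 3.58.1 (R 4.3.3; lmFit and trended eBayes, two-sided), with Benjamini-Hochberg adjustment over 13647 probe sets, after controls and the dimmest 40% were left out. Calls used an adjusted p under 0.05. The fit was run on simulated data with independent noise on each array, so patterns shared between arrays were not simulated. That run required calls only at differences larger than those of any tested member. It does not show how well differences of the members' size are detected.

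The written design counted bacterial hybridisation controls (bio, cre) as background. These had signals of 116 or more on every array, so only the 27 dap, lys, phe, thr and trp controls were used. Arrays with the same number come from the same culture, per the labels, so they were paired by culture in an alternative fit with a block. Deviations from the genotype mean correlated at -0.035, -0.53 and -0.55 for the paired arrays.

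The members, lists, tests and the rule for named genes were chosen with earlier results of these data known. The rule named the 10 tested members with the smallest p, the 5 brightest and 5 dimmest, members with an established name, clusters of 3 or more loci no more than 100 locus numbers apart, and genes of the EDS1, helper, regulator, SA output and coiled-coil lists. Alternatives were the culture block, quantile normalization, median centring, an offset of 16 before the log, no filter, a filter on background, no variance trend, array weights, and each array or culture left out. No sequence was printed because no sequence table was given.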

Additional observations from a re-analysis of the deposited data

How the results depend on the processing

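No member was called under any of the 18 alternatives, and the lowest limma adjusted p of a tested member was 0.0965, for AT5G22690 without culture 3. With culture as a replicate block 0 of 13647 probe sets were called, against 3 without it, and 0 members in both; the block changed no other call. Over all probe sets the count was 1 with quantile normalization, 5 with the offset, 0 without the filter, 1 without the variance trend, 43 with array weights, and 0 to 728 with an array or a culture left out (302 without Col-0 replicate 3, 728 without culture 3). Leaving out a pair of arrays, sid2.2 replicate 2 with Col-0 replicate 3, an alternative chosen after seeing the data, gave 235. The members' median difference ran from -0.016 to 0.37 with an array or culture left out, against 0.19 in the main fit. These moves were smaller than the SD between cultures, 0.36. That SD is larger than the median itself, so a median that turns its sign also stays within it. Of the 23 tested members 12 kept their sign throughout, but with arrays or cultures left out 10 of these moved by over 1.5 times from their value in the main fit: from -0.83 to -0.31 for AT1G72940, -0.73 to -0.13 for AT5G11250, 0.17 to 0.53 for AT1G63750, 0.073 to 0.52 for AT5G38350, 0.14 to 0.66 for AT4G19520, 0.19 to 0.46 for AT3G04220, 0.015 to 0.75 for AT1G63880, 0.017 to 0.43 for AT5G17880, 0.093 to 0.41 for AT5G38340 and 0.057 to 0.32 for AT5G40060. AT1G72890 ran from 0.54 to 0.94 around 0.79, and AT4G19530 from -0.88 to -0.46 around -0.65. With arrays or cultures left out, differences ran from -0.16 to 1.38 for AT5G22690, -0.64 to 0.19 for AT5G46450, -0.094 to 0.79 for AT1G72900, -0.59 to 0.094 for AT5G18360, -0.017 to 0.63 for AT4G19510, -0.043 to 0.38 for AT3G44630, -0.26 to 0.063 for AT2G14080, -0.49 to 0.37 for AT3G04210, -0.30 to 0.13 for AT1G72920, -0.20 to 0.37 for AT4G19500, -0.16 to 0.19 for AT1G69550, -0.26 to 0.90 for AT3G48080 and -0.48 to 0.71 for SAG101. AT1G69550 was also below 0 with quantile normalization (-0.049), median centring (-0.065), array weights (-0.0026) and without this pair (-0.25). SAG101 was below 0 with quantile normalization (-0.023), median centring (-0.038) and without this pair (-0.15), as was AT3G48080 without this pair (-0.31). The causes were not tested. The mean share of members near background was 30.4% against the brightest control and 49.6% against the low-signal limit, compared with 22.96% in the main setting. For the 22 dim members, signal near background limits what a difference can show.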
